A study of Mus musculus with 19 samples.

Results

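Inguinal fat of tumour-bearing mice given efruxifermin was set against inguinal fat of healthy mice, which asks what still differed from health under the drug and what passed beyond the healthy level. The groups were chosen by the labelled treatment, which gave 5 efruxifermin and 4 healthy libraries, 9 of the 19 in the series. Of the other libraries, 5 from tumour-bearing mice without the drug (tumour control) are used below as a level beside the comparison. All mice were wild-type C57BL/6JRj, held at 29 °C (thermoneutral for mice, so that little heat has to be made), acclimatized for 14 days, and each library held whole inguinal adipose tissue. The efruxifermin mice carried a CHX fibrosarcoma, grown from mouse cells injected into the right gastrocnemius, and received 2 mg/kg efruxifermin into the peritoneum in 6 injections that began 9 days before the tumour cells. The tumour control mice carried the same tumour and received a control AAV (an adeno-associated virus without the studied gene) 9 days before it. The healthy mice had no tumour and received the control AAV and PBS. The remaining libraries came from tumour-bearing mice given an AAV for FGF21, the hormone described below. They enter the gene filter and the shared fits, and their levels are not given. The labels do not state that efruxifermin mice received the control AAV, so drug, tumour and virus cannot be told apart in this comparison. Mice were killed 14 days after the tumour cells were given. The labels give neither age nor sex, and do not say from which side the fat was taken.

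Fibroblast growth factor 21 (FGF21) is a hormone made mainly by the liver. It acts on cells that carry an FGF receptor, in fat mostly FGFR1, together with the co-receptor β-Klotho, and adipocytes are a main target. Efruxifermin is an engineered FGF21 fused to an antibody Fc part, which lengthens its life in blood. In cancer cachexia, the wasting that tumours bring, white fat loses stored triglyceride, and with it the transcripts of lipid storage and of secreted adipocyte hormones.

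Expression was measured by sequencing the 3' ends of transcripts and was deposited as RPM, reads scaled to the same total in every library. The efruxifermin libraries held 2676014 to 3196674 reads and the healthy libraries 2693930 to 2844145 reads. Despite similar depth, fewer genes were seen in the efruxifermin libraries: 14193 ± 1512 genes had a read, against 16639 ± 637 in healthy libraries (SD, n = 5 and 4, two-sided exact permutation test p = 0.0476, smallest possible p 0.0159). Gm42418, a transcript that overlaps ribosomal RNA sequence, took 8.34% ± 5.38 of RPM in efruxifermin libraries and 3.34% ± 1.06 in healthy libraries (SD, exact permutation p = 0.0476), and 17.3% in efruxifermin library 3. That library also had the fewest genes (12537), the lowest sum of adipocyte markers in its group and the highest sum of skeletal muscle markers. It stood apart from the others of its group, and values without it are given beside the differences it moved most.

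The labelled tissue was checked against 12 adipocyte markers, all of which were read in every library of the 3 groups. Their summed level was 8940 to 41732 RPM in efruxifermin fat, 2301 to 14920 RPM in tumour control fat and 15930 to 40704 RPM in healthy fat. Muscle markers ran over a wide span within each group, with 51.9 to 38994 RPM in efruxifermin fat, 51.1 to 115653 RPM in tumour control fat and 434 to 45544 RPM in healthy fat. B cell markers, which mark lymph node tissue, summed to 36.5 to 2464 RPM in efruxifermin fat, 50.1 to 6354 RPM in tumour control fat and 25.7 to 2789 RPM in healthy fat. The plot of library composition shows that both marker sums were high in some libraries of every group. In whole tissue, fewer cells of a type and less RNA per cell cannot be told apart.

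**Figure D1:**
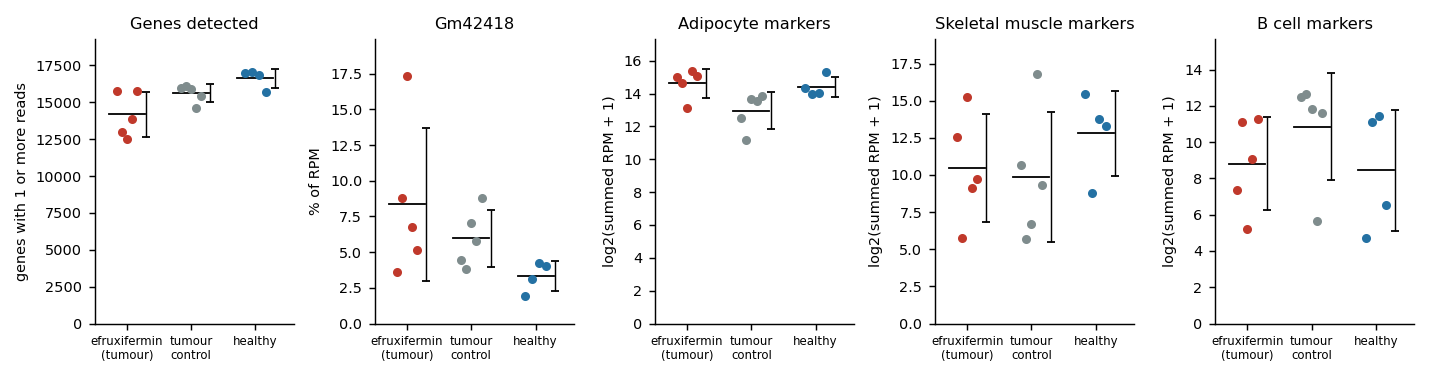
Library composition in efruxifermin, tumour control and healthy fat: genes with 1 or more reads, Gm42418 as a percentage of RPM, and the summed level of adipocyte, skeletal muscle and B cell markers as log2(RPM + 1). Each point is 1 library, the line is the mean and the bar is the SD. Efruxifermin libraries held fewer genes (14193 ± 1512) than healthy libraries (16639 ± 637), and muscle and B cell markers varied widely in every group.

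Across 17013 genes tested by limma on log2(RPM + 1), 0 genes (0.0%) passed a Benjamini-Hochberg adjusted p of 0.05 between efruxifermin and healthy fat. Differences below are therefore levels with their error, and none is a call. The lowest adjusted p by limma was 0.272, for Chil1. At an unadjusted p under 0.05, 1373 genes (8.07%) differed, of which 179 (1.05%) were higher and 1194 (7.02%) lower in efruxifermin fat. Every efruxifermin library was above every healthy library for 65 genes (0.382%) and below for 332 genes (1.95%). On whole reads recovered from the deposited RPM, edgeR's quasi-likelihood test called 0 genes (0.0%, with 1079 at an unadjusted p under 0.05) and DESeq2 called 16 (0.094%), 12 higher and 4 lower. Under the other alternatives run, the adjusted p of those among them that are named below ranged between 0.0797 and 1, except for Hsd11b1, where it ranged between 0.0234 and 0.993.

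The surplus of lower genes changed with the scaling. The median log2 difference over all genes was -0.30, and it was -0.03 under quantile normalization and 0.10 with genes detected as a covariate. The split at an unadjusted p under 0.05 was 458 higher and 516 lower under quantile normalization, and 428 higher and 512 lower by DESeq2. Of all 17013 genes, 12.4% to 28.9% had 0 reads in a given efruxifermin library and 7.84% to 13% in a given healthy library. The part of library complexity in these differences was not tested. Gene values are best read against the median of -0.30. Over all 17013 genes, 12010 differences were negative and 4995 positive. Sign counts of lists are best read against these numbers, and counts at an unadjusted p under 0.05 against 1.05% higher and 7.02% lower.

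Storage and secretion genes of the adipocyte overlapped between efruxifermin and healthy libraries. Adiponectin (Adipoq), an insulin-sensitizing hormone of adipocytes, stood at 1510.0, 1167, 187, 1988 and 1508 RPM in efruxifermin libraries 1 to 5, against 724, 851, 714 and 2192 RPM in healthy libraries 1 to 4. The log2 difference was 0.01 (95% interval -1.27 to 1.29, limma unadjusted p = 0.987). Libraries of both groups covered the same span, with efruxifermin library 3 far below and healthy library 4 far above the rest of its group. Tumour control fat had 312 ± 185 RPM (SD, n = 5) of Adipoq. The interval allows a difference of more than 2-fold either way, so equality with healthy fat is not shown. Without efruxifermin library 3 the difference was 0.61.

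The same order, with the tumour controls lowest, held for the perilipin that coats the lipid droplet, Plin1. It averaged 778 ± 359 RPM in efruxifermin fat, 181 ± 87.3 RPM in tumour control fat and 646 ± 312 RPM in healthy fat (SD, n = 5, 5 and 4). Lipoprotein lipase (Lpl), which frees fatty acids from circulating triglyceride, averaged 7809.5 ± 3727 RPM in efruxifermin fat, 1909 ± 1111 RPM in tumour control fat and 5199.7 ± 1956 RPM in healthy fat. The log2 differences of efruxifermin from healthy fat were 0.13 ± 0.53 (SE) for Plin1 and 0.48 ± 0.48 for Lpl, and for both genes the libraries of the 2 groups overlapped. The adipose triglyceride lipase Pnpla2 gave 0.41 ± 0.49 and the hormone-sensitive lipase Lipe 0.80 ± 0.44. The fatty acid carrier Fabp4 (0.45 ± 0.56), the glycerol channel Aqp7 (0.67 ± 0.42) and adipsin, Cfd (0.05 ± 0.72), likewise overlapped between groups. Without efruxifermin library 3 the differences were 0.63 for Plin1, 1.01 for Fabp4 and 0.79 for Cfd. Against the same healthy libraries, tumour control fat lay at log2 -1.90 for Plin1, -1.65 for Lpl, -1.58 for Fabp4 and -1.54 for Cfd. Both sets of differences use the same 4 healthy mice.

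These differences had opposite signs in libraries with few and with many B cell transcripts. Among the libraries with few B cell transcripts (a mean of 3 or less over the markers on the log2(RPM + 1) scale), 2 efruxifermin and 2 healthy, the log2 difference was -1.24 for Adipoq, -0.76 for Plin1, -0.43 for Lpl, -0.67 for Fabp4 and -1.45 for Cfd. Among the other 3 efruxifermin and 2 healthy libraries it was 0.96, 0.77, 1.21, 1.30 and 1.18 for the same genes. The median over all genes was -0.27 in the first set and -0.32 in the second. The first set holds efruxifermin library 3 and healthy library 4, which were the lowest and the highest of their groups for Adipoq. The split was chosen after seeing the data, and the part of lymph node tissue was not tested.

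Some adipocyte genes stood above the healthy libraries in most efruxifermin mice. Leptin (Lep), the hormone that reports fat stores to the brain, was read at 91.3, 86.7, 10.2, 115 and 106 RPM in efruxifermin fat, against 17.9, 43.8, 48.2 and 47.6 RPM in healthy fat. In 4 of 5 efruxifermin libraries Lep was above every healthy library, and library 3 was below all of them. The log2 difference was 0.77 ± 0.62 (limma unadjusted p = 0.225), and 1.41 without library 3. The tumour control mean was 15.4 ± 10.9 RPM.

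Npr3, the clearance receptor that removes natriuretic peptides and so limits their lipolytic signal, showed the same split. It was read at 90.7, 96.9, 18.9, 101 and 85.9 RPM in efruxifermin fat, 1.9, 0.757, 4.91, 9.2 and 5.07 RPM in tumour control fat and 18.6, 23, 33.1 and 52 RPM in healthy fat. Its log2 difference from healthy fat was 1.19 ± 0.52 (limma unadjusted p = 0.0318, adjusted p = 0.59). In the 4 efruxifermin libraries other than library 3, Npr3 was above the highest healthy value.

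Pck1, the enzyme of glyceroneogenesis that supplies the glycerol backbone of triglyceride, stood at 2176, 651, 208, 1923 and 2481 RPM in efruxifermin fat, against 525, 256, 668 and 842 RPM in healthy fat. Its log2 difference was 1.03 ± 0.60, and 1.62 without library 3, while tumour control fat averaged 157 ± 106 RPM. Libraries 1, 4 and 5 exceeded every healthy value, and libraries 2 and 3 did not. The stearoyl-CoA desaturase Scd1 gave 1.02 ± 0.60 (1.61 without library 3), the acyl-CoA synthetase Acsl1 0.92 ± 0.55 and retinol-binding protein Rbp4 0.71 ± 0.52 on the log2 scale. Col5a3, a collagen V chain, gave 0.65 ± 0.40, and Sncg (gamma-synuclein, abundant in adipocytes) 0.21 ± 0.44. None of these passed an unadjusted p of 0.05. Summed adipocyte markers were 25113 to 41732 RPM in the efruxifermin libraries other than library 3, which had 8940 RPM, against 15930 to 40704 RPM in healthy libraries. Their part in these levels was not tested.

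**Figure D2:**
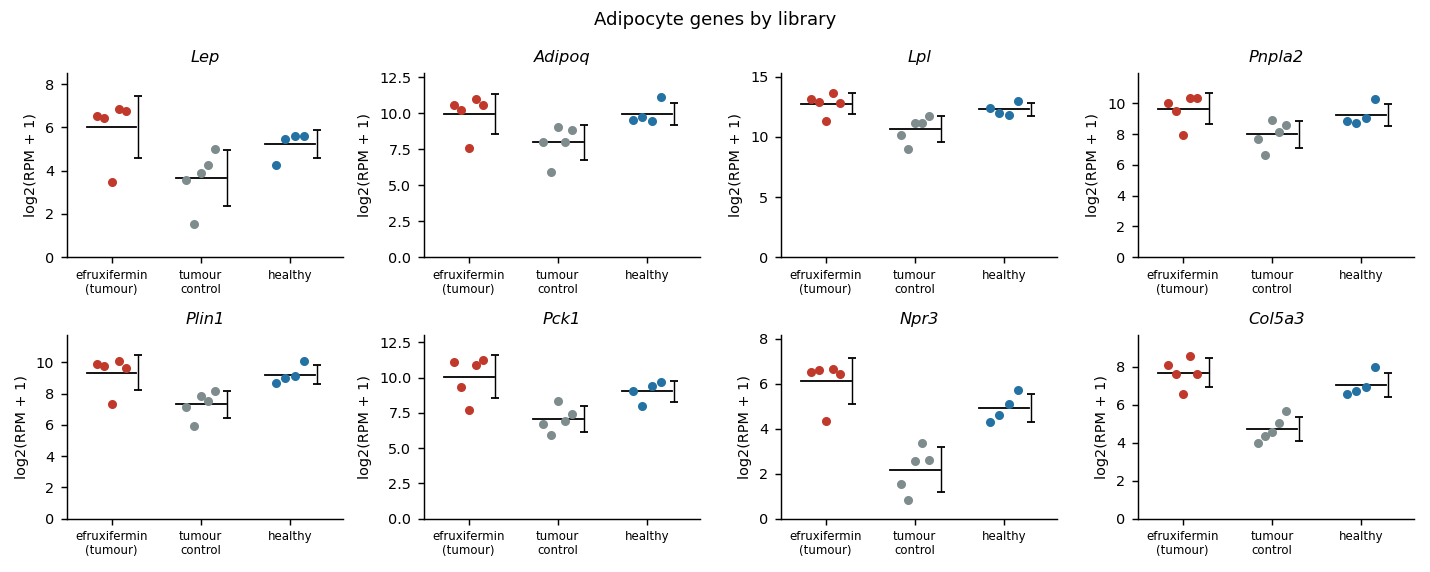
Adipocyte genes by library in efruxifermin, tumour control and healthy fat, on the log2(RPM + 1) scale; points are libraries, lines are means and bars are SDs. Adipoq and Plin1 overlap between efruxifermin and healthy fat, and 4 of 5 efruxifermin libraries lie above every healthy library for Lep and Npr3.

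By list, 1 of 22 tested genes of lipolysis and the lipid droplet was higher and 1 lower at an unadjusted p under 0.05. Over all genes 1.05% were higher and 7.02% lower at that p. The higher gene was Fitm2, which helps to form lipid droplets (118 ± 31.8 RPM in efruxifermin fat and 56.5 ± 24.2 RPM in healthy fat). The lower was Hilpda, a hypoxia-induced lipase inhibitor (11.1 ± 9.72 RPM in efruxifermin fat and 27.9 ± 13.8 RPM in healthy fat). The median of this list was 0.45 in log2, against -0.30 over all genes. It was -0.37 among the libraries with few B cell transcripts, against -0.27 over all genes there, and 1.04 among the others, against -0.32. The medians of lipid uptake (0.27 over all libraries) and triglyceride assembly (0.46) were likewise negative in the first set, at -0.52 and -0.24. That of triglyceride assembly was near the median of all genes there. Of 20 lipogenesis genes 1 was higher, Acacb, the acetyl-CoA carboxylase of the mitochondrial surface (1.22 ± 0.52). None of 19 lipid uptake genes passed that threshold. Gpam, which attaches the first fatty acid to glycerol phosphate, was the single lower gene of 14 for triglyceride assembly. It stood at 128, 123, 93.7, 171 and 108 RPM in efruxifermin fat, against 198, 176, 254 and 224 RPM in healthy fat, and the groups did not overlap. The last step of that pathway, Dgat1, had the opposite sign at 0.74 ± 0.38 (limma unadjusted p = 0.0634).

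**Figure D3:**
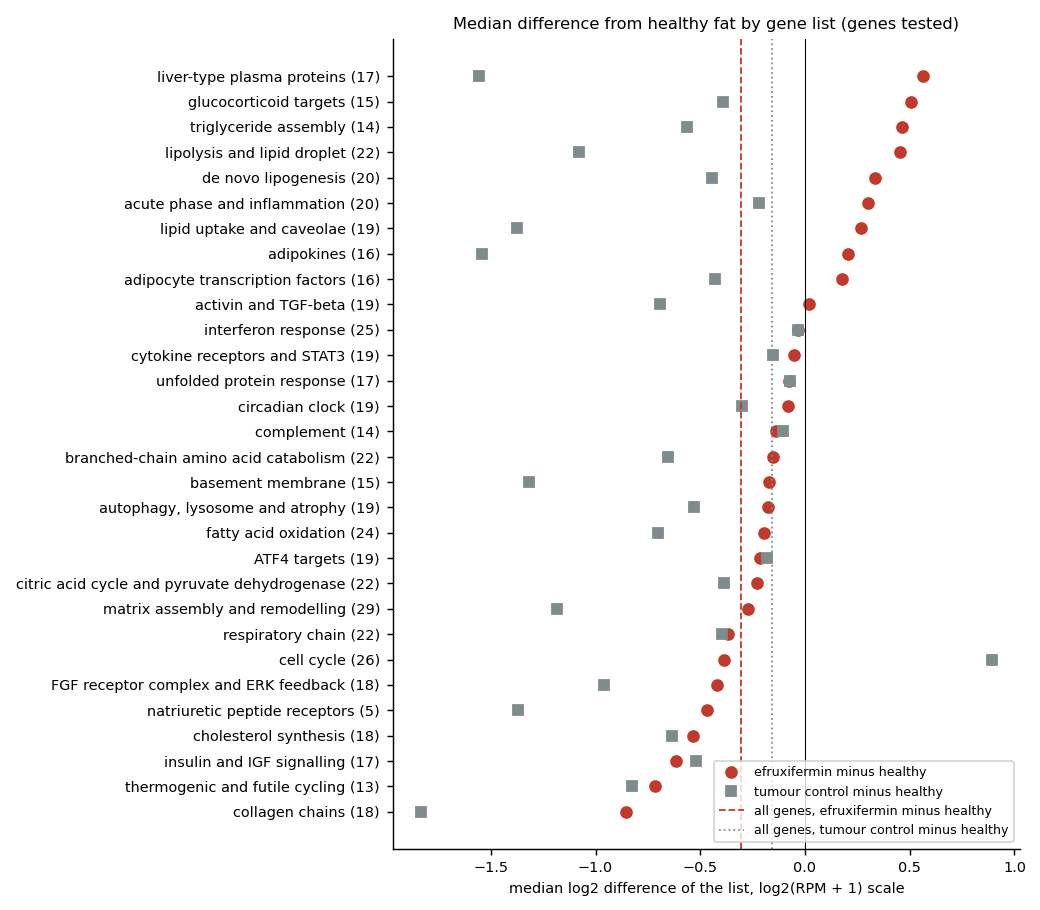
Median log2 difference from healthy fat of 30 pathway lists, for efruxifermin fat (circles) and tumour control fat (squares), with the number of genes tested in brackets; the dashed and dotted lines are the medians over all genes. Lipid storage lists lie right of zero for efruxifermin and left of it for tumour control, and collagen chains lie left of zero for both. Both differences use the same healthy libraries.

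Several genes had means above both healthy and tumour control fat. Timp4 (ENSMUSG00000030317), an inhibitor of matrix metalloproteinases expressed in adipocytes, stood at 403, 201, 84.2, 394 and 249.6 RPM in efruxifermin fat, against 49.6, 21.5, 78.8 and 48.7 RPM in healthy fat. Every efruxifermin library was above every healthy library. The log2 difference of 2.34 ± 0.52 corresponds to a 5.05-fold higher level (limma adjusted p = 0.334, DESeq2 adjusted p = 0.00782). Tumour control fat averaged 38.1 ± 30.8 RPM and healthy fat 49.7 ± 23.4 RPM, so the efruxifermin mean of 266 ± 135 RPM lay outside the span of the other 2 means. Tumour control library 5, at 87 RPM, was above efruxifermin library 3 and above every healthy library.

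Tspan4, a tetraspanin membrane protein, was read at 52.6, 86.7, 42.4, 83.5 and 42.6 RPM in efruxifermin fat, against 15.5, 17.4, 21.9 and 16.5 RPM in healthy fat. The groups did not overlap, and the log2 difference was 1.67 ± 0.38 (limma adjusted p = 0.334, DESeq2 adjusted p = 0.00782). Tumour control fat averaged 14.6 ± 6.43 RPM. Fam25c stood at 50.9 ± 17 RPM in efruxifermin fat, 31 ± 17.5 RPM in tumour control fat and 9.14 ± 6.64 RPM in healthy fat. Here the tumour control mean lay above the healthy mean as well.

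Adamts9, a secreted protease that cleaves proteoglycans, had 85.1, 33.7, 37.5, 23.7 and 60.2 RPM in efruxifermin fat, against 17.2, 2.23, 21.6 and 10.3 RPM in healthy fat (log2 difference 2.01 ± 0.51). Its relative Adamts1 gave 1.16 ± 0.41, and for both proteases the groups did not overlap. Srgap2, a regulator of cell shape through Rac1, averaged 74.4 ± 25.9 RPM in efruxifermin fat and 32.7 ± 8.14 RPM in healthy fat, again without overlap. It was among the 12 genes that DESeq2 called higher.

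Hsd11b1 (ENSMUSG00000016194), the enzyme that regenerates active glucocorticoid inside cells, was read at 336, 279, 6.67, 323 and 287 RPM in efruxifermin fat, against 30.6, 77.2, 44.2 and 49.5 RPM in healthy fat. It was high in 4 of 5 efruxifermin libraries and below every healthy value in library 3. Over all libraries the log2 difference was 1.59 ± 0.76 (limma adjusted p = 0.617). Without library 3 it was 2.65, and Hsd11b1 was then the 1 gene called by limma (adjusted p = 0.0234). DESeq2 called it with all libraries (adjusted p = 0.0327). Tumour control fat averaged 33.3 ± 15.1 RPM, against 50.4 ± 19.6 RPM in healthy fat, and these 2 groups overlapped.

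Of 15 glucocorticoid target genes tested, 3 were higher and 0 lower at an unadjusted p under 0.05: Hsd11b1, the metal-binding metallothionein Mt2 and the clock repressor Per1. Over all genes 1.05% were higher and 7.02% lower at that p. Mt2 averaged 336 ± 287 RPM in efruxifermin fat, 129 ± 97.7 RPM in tumour control fat and 128 ± 134 RPM in healthy fat. Its efruxifermin and healthy libraries overlapped, with the highest values in efruxifermin library 1 (820 RPM) and healthy library 4 (326 RPM) of each group. The list's median was 0.51 in log2, against -0.30 over all genes.

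Gm31517, a predicted gene, had 420 reads in efruxifermin libraries and 8 in healthy libraries, most of them in libraries 1, 2 and 4. Ctxn3 had 51 reads in 2 efruxifermin libraries and 0 in healthy libraries. The bound was 12.8-fold higher against a floor of 3 reads over the healthy group, which covers counting error only. Without efruxifermin library 3, which had 12.6 RPM, the bound was 4.32-fold. Tumour control fat had 100 reads of Ctxn3, all in library 4, where skeletal muscle markers summed to 115653 RPM, and its mean of 5.41 RPM was above the efruxifermin mean of 3.46 RPM. The limma unadjusted p of efruxifermin against healthy fat was 0.182.

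**Figure D4:**
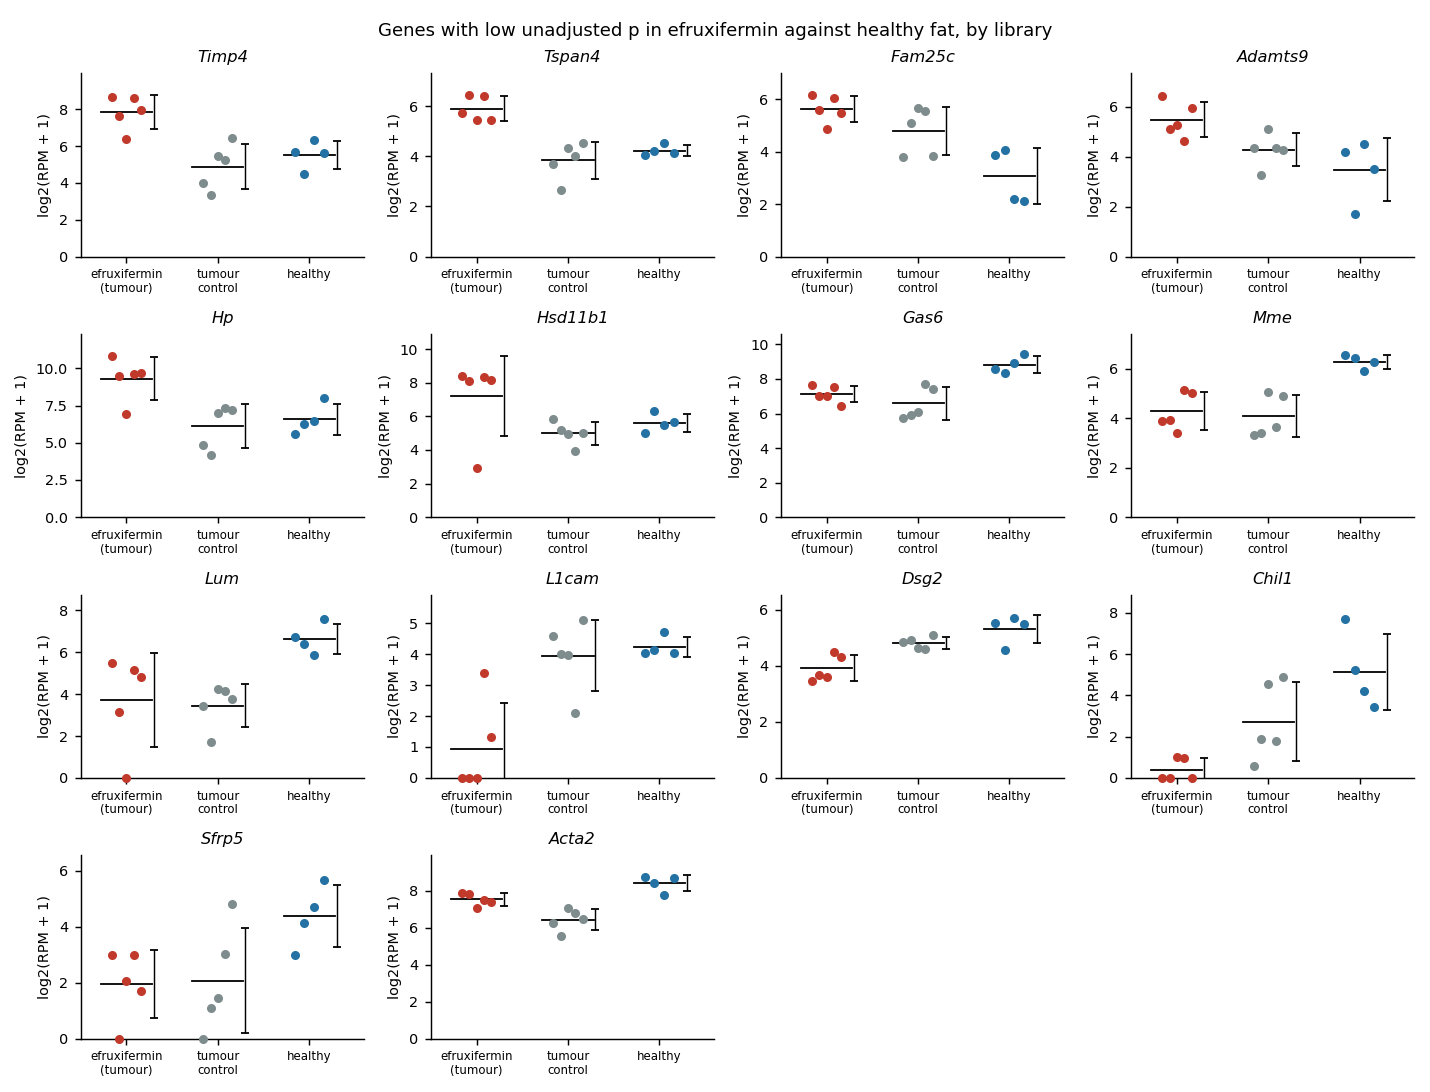
Genes with a low unadjusted p by limma, or named in the text, in efruxifermin, tumour control and healthy fat, on the log2(RPM + 1) scale; points are libraries, lines are means and bars are SDs. For Timp4, Tspan4, Fam25c and Adamts9 every efruxifermin library lies above every healthy library. For Gas6, Mme, Lum, L1cam, Dsg2, Chil1 and Sfrp5 every efruxifermin library lies below every healthy library, for Sfrp5 by a narrow gap (6.96 against 7.03 RPM).

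Gas6, Mme and Sfrp5 lay below the healthy level, nearer to tumour control fat. Gas6 (ENSMUSG00000031451), a ligand that links the TAM receptors of phagocytes to dying cells, stood at 199, 127, 127, 183 and 87.1 RPM in efruxifermin fat, 52.2, 59, 68.1, 212 and 171 RPM in tumour control fat and 376, 324, 492 and 701 RPM in healthy fat. The highest efruxifermin library was below the lowest healthy library. The log2 difference from healthy fat was -1.70 ± 0.36, a 3.25-fold lower level (limma adjusted p = 0.334). The tumour control difference from the same healthy libraries was -2.24.

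Mme (neprilysin), a membrane peptidase that degrades natriuretic and other peptides, was read at 13.8, 14.2, 9.47, 34.5 and 31.4 RPM in efruxifermin fat, 9.02, 9.46, 32.6, 11.6 and 28.9 RPM in tumour control fat and 92.1, 83.9, 58.3 and 76.2 RPM in healthy fat. The efruxifermin and healthy libraries did not overlap (4.01-fold lower, limma adjusted p = 0.334). The secreted Wnt antagonist Sfrp5 averaged 3.85 ± 3.03 RPM in efruxifermin fat, 7.37 ± 11.3 RPM in tumour control fat and 24.7 ± 18.6 RPM in healthy fat. Its highest efruxifermin library (6.96 RPM) was only just below its lowest healthy library (7.03 RPM). Among 16 adipokine genes Sfrp5 was the single one lower at an unadjusted p under 0.05, and none was higher, against 7.02% lower and 1.05% higher of all genes.

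Chil1, L1cam and Dsg2 had efruxifermin means below both other groups. Chil1, a secreted chitinase-like protein, had 6 reads in efruxifermin libraries, 155 in tumour control libraries and 760 in healthy libraries. Its values were 0, 0, 1.05, 0.949 and 0 RPM in efruxifermin fat, against 206, 36.7, 17.6 and 9.89 RPM in healthy fat (log2 difference -4.75 ± 0.88, DESeq2 adjusted p = 6.01e-07). The groups did not overlap, and healthy library 1 was far above the rest of its group. L1cam, a nerve cell adhesion molecule, averaged 2.2 ± 4.13 RPM in efruxifermin fat, 18 ± 11.2 RPM in tumour control fat and 18.3 ± 4.88 RPM in healthy fat. The desmosomal cadherin Dsg2 averaged 14.7 ± 5.18 RPM in efruxifermin fat, 27.5 ± 4.06 RPM in tumour control fat and 40.7 ± 12.4 RPM in healthy fat. Markers of mammary and skin epithelium, of which 4 of 17 were lower and 0 higher at an unadjusted p under 0.05, summed to 971 to 2536 RPM in efruxifermin fat, 701 to 1309 RPM in tumour control fat and 1748 to 2670.4 RPM in healthy fat. Markers of Schwann cells and nerve, of which 10 of 12 tested had negative differences, summed to 501 to 1050.3 RPM in efruxifermin fat, 242 to 827 RPM in tumour control fat and 549 to 1501 RPM in healthy fat. Over all genes 7.02% were lower and 1.05% higher at an unadjusted p under 0.05, and 12010 of 17013 differences were negative. The part of epithelial and nerve cells in the levels of Dsg2 and L1cam was not tested.

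Of the 4 genes that DESeq2 called lower, Ypel4, Mreg and Myh7 had 0 reads in all 5 efruxifermin libraries. Against a floor of 3 reads over that group, the bounds were 21.6-fold, 23.2-fold and 297-fold lower than in healthy fat. This floor covers counting error only, and 12.4% to 28.9% of all genes had 0 reads in a given efruxifermin library. Ypel4 and Mreg had 48 and 52 reads over the 4 healthy libraries, and their log2 differences by limma were -2.33 and -2.38. Tumour control fat averaged 2.45 ± 1.84 RPM of Ypel4 and 10.1 ± 9.16 RPM of Mreg. Healthy fat averaged 4.34 ± 2.11 RPM and 4.67 ± 2.64 RPM of these genes. Myh7 is the myosin heavy chain of slow muscle fibres, and 677 reads in healthy fat came mostly from libraries 1 and 3. Without healthy library 1 the bound for Myh7 was 75.2-fold. The fast-fibre gene Myh1 (0, 0, 0.351, 0 and 33.3 RPM in efruxifermin fat, against 990.1, 28.2, 229 and 149 RPM in healthy fat) and the sarcomere gene Actn2 (0, 0, 8.42, 0 and 0 RPM in efruxifermin fat, against 191, 12.6, 26.3 and 13.2 RPM in healthy fat) were also among the 8 lower genes of smallest p. All 17 skeletal muscle markers had negative differences, as had 12010 of 17013 over all genes. Their median was -2.59 in log2, against -0.30 over all genes. Efruxifermin library 3 had the highest muscle sum of its group (38994 RPM) and 0.351 RPM of Myh1. The part of muscle tissue in these differences was not tested.

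Clock genes differed from healthy fat with either sign. In the circadian clock, Clock or Npas2 pairs with Arntl (BMAL1) on E-box sequences and drives Per1, Per2, Per3, Nr1d1 and Dbp. The Per proteins then block the pair, Nr1d1 (REV-ERBα) represses Arntl, and Dbp activates genes that carry D-boxes. Of 19 clock genes tested, 5 were higher and 2 lower at an unadjusted p under 0.05, against 1.05% higher and 7.02% lower of all genes. Their median was -0.08 in log2, a value that turned positive under quantile normalization and 2 other scalings tried. The 5 higher genes were Per1, Per2, Per3, Nr1d1 and Dbp, and the 2 lower were Arntl and Npas2. Over the list 8 differences were positive and 11 negative. Other repressors and outputs of the loop were on either side of zero, with Cry1 at -0.56 ± 0.53, Cry2 at -0.23 ± 0.37, Hlf at -0.40 ± 0.95, Nr1d2 at 0.27 ± 0.40 and Tef at 0.47 ± 0.35, and none of these passed an unadjusted p of 0.05.

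Promoter windows from RefSeq (GRCm38.p6, 250 bases before to 50 after a start site) were found for 16 of 20 clock genes, and those of Per1, Per3 and Arntl are shown because, of the clock genes past an unadjusted p of 0.05, theirs are the windows in which a match was found. The windows of Nr1d1, Dbp and Npas2, past the same threshold, hold none of the 3 elements. Capitals mark matches on either strand to an E-box (CACGTG), a D-box (TTATGNAA) or a Rev-erb element (TAGGTCA). The Per1 window (chr11:69098699-69098998, plus strand) holds an E-box at -166 and a D-box at -24 from the start. The Per3 window (chr4:151044616-151044915, minus strand) holds D-boxes at -205 and -158. The later Arntl window (chr7:113207261-113207560, plus strand) holds a Rev-erb element at 31.
Per1: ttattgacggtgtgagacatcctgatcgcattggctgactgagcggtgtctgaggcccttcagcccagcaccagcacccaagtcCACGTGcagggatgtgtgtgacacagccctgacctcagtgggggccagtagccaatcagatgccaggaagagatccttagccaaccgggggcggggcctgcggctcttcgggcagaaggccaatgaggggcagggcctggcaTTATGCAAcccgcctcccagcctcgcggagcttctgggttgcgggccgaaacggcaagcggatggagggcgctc
Per3: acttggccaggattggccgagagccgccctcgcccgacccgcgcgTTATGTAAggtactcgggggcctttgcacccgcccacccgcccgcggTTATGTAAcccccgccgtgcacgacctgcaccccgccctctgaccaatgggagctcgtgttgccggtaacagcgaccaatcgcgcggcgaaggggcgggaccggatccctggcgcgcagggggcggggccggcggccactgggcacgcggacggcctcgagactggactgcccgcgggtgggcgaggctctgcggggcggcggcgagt
Arntl: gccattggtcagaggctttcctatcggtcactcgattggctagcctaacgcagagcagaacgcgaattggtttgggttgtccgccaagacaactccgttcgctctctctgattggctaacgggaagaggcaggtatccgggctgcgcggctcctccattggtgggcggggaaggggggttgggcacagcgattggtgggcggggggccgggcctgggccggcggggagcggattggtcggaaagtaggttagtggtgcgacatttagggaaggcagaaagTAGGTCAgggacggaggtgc
Of all 32851 RefSeq windows of this length, 7.15% hold the E-box, 3.38% the D-box and 2.61% the Rev-erb element. E-boxes were also found in the windows of Cry1, Tef, Ciart and Bhlhe41, and a Rev-erb element in that of Nfil3. A match describes the letters of the window and is not a measured site.

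Dbp, the D-box activator, was read at 34.4, 28.8, 18.2, 51.9 and 32.5 RPM in efruxifermin fat, 25.6, 11.7, 23.2, 25.7 and 23.8 RPM in tumour control fat and 14.1, 16, 9.35 and 3.66 RPM in healthy fat. Every efruxifermin library was above every healthy library. The log2 difference was 1.62 ± 0.40 (limma adjusted p = 0.334, DESeq2 adjusted p = 0.0226). Nr1d1 stood at 84.5, 52.3, 60.3, 166 and 99 RPM in efruxifermin fat, against 36.9, 18.9, 35.6 and 25.6 RPM in healthy fat, also without overlap (1.55 ± 0.42). For Nr1d1 the tumour control mean, 34.3 ± 22.3 RPM, was near the healthy mean of 29.3 ± 8.54 RPM, whereas for Dbp it lay between the other 2 means.

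Per2 had 53.2, 114, 31.6, 13.3 and 60.2 RPM in efruxifermin fat, against 9.49, 21.5, 9.71 and 12.1 RPM in healthy fat (log2 difference 1.73 ± 0.49, DESeq2 adjusted p = 0.0226). Per3 had 67.9, 70.8, 114, 66.1 and 38.5 RPM in efruxifermin fat, against 62.6, 36.4, 20.9 and 25.6 RPM in healthy fat (1.00 ± 0.34). Per1 had 56, 27.1, 71.9, 33.5 and 52.7 RPM in efruxifermin fat, against 7.74, 15.6, 47.8 and 40.7 RPM in healthy fat (1.00 ± 0.47). Libraries of the groups overlapped for all 3 Per genes, and none passed the adjusted threshold by limma.

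On the activator side, Arntl stood at 16.9, 54.6, 5.96, 8.23 and 27.3 RPM in efruxifermin fat, 49.8, 52.2, 53.7, 13.8 and 35.5 RPM in tumour control fat and 66.1, 71.6, 65.8 and 20.2 RPM in healthy fat. In 3 of 4 healthy libraries it was above every efruxifermin library, and healthy library 4 was far below the rest of its group. The log2 difference was -1.52 ± 0.57 (limma unadjusted p = 0.0131). Npas2 averaged 1.22 ± 1.69 RPM in efruxifermin fat, 2.55 ± 3.46 RPM in tumour control fat and 6.7 ± 2.61 RPM in healthy fat. Its efruxifermin and healthy libraries did not overlap. Clock averaged 95.6 ± 17.6 RPM in efruxifermin fat, 83.9 ± 23.2 RPM in tumour control fat and 134 ± 14.3 RPM in healthy fat (efruxifermin against healthy, limma unadjusted p = 0.059). The labels state a cycle of light and dark but not the hour at which each mouse was killed.

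**Figure D5:**
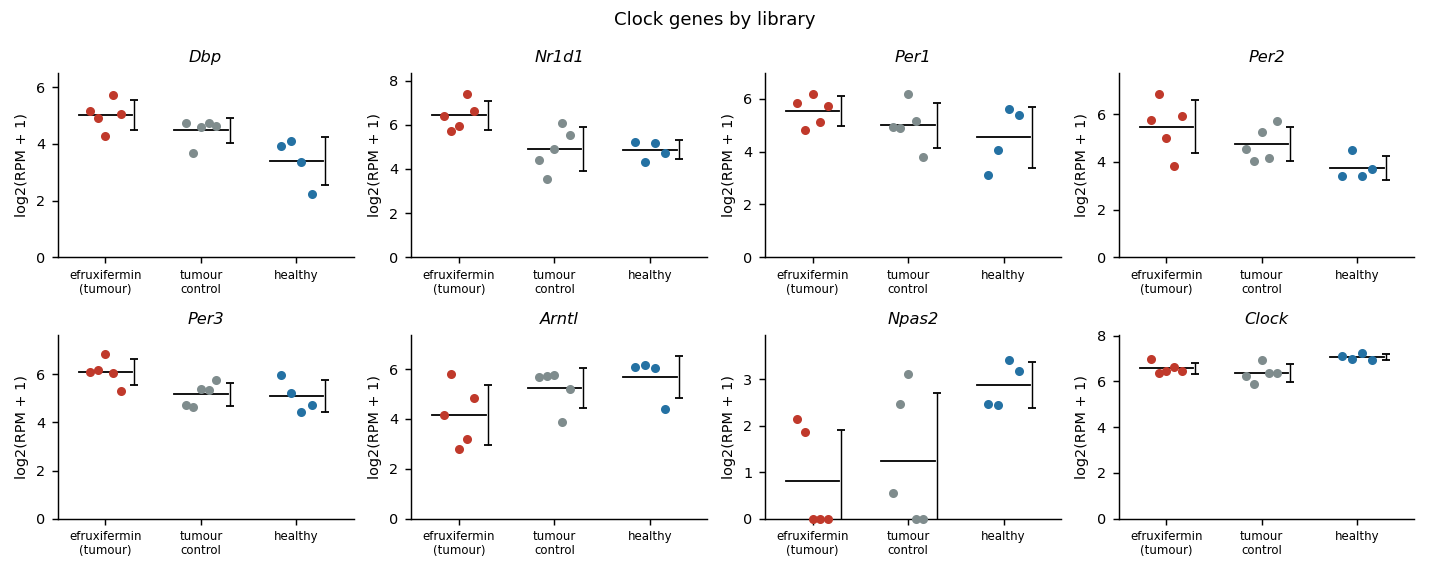
Clock genes by library in efruxifermin, tumour control and healthy fat, on the log2(RPM + 1) scale; points are libraries, lines are means and bars are SDs. Dbp and Nr1d1 lie above every healthy library in all 5 efruxifermin libraries, and Arntl and Npas2 have lower means in efruxifermin than in healthy fat.

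Most collagen chains lay below the healthy level, with 15 of 18 differences negative, against 12010 of 17013 over all genes. Of these chains, 0 were higher and 5 lower at an unadjusted p under 0.05, against 1.05% higher and 7.02% lower of all genes. Their median was -0.85 in log2, against -0.30 over all genes and -1.83 for tumour control fat from the same healthy libraries. The 5 were Col6a2, Col27a1, Col16a1, Col3a1 and Col6a3. Col6a2, a chain of the collagen VI that surrounds adipocytes, stood at 82.6, 28.1, 15.1, 58.9 and 28 RPM in efruxifermin fat, against 76.3, 63.8, 87.8 and 155 RPM in healthy fat (-1.31 ± 0.44). The fibril collagen Col3a1 had 838, 114, 33.7, 191 and 175 RPM in efruxifermin fat, against 437, 243, 237 and 1028 RPM in healthy fat. It overlapped widely, with efruxifermin library 1 and healthy library 4 far above the others, and its difference of -1.31 was -0.75 without efruxifermin library 3.

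Lumican (Lum), a proteoglycan that spaces collagen fibrils, was read at 43.5, 7.94, 0, 34.5 and 27.3 RPM in efruxifermin fat, 9.97, 2.27, 17.9, 16.5 and 12.5 RPM in tumour control fat and 107, 82.4, 56.8 and 191 RPM in healthy fat. The highest efruxifermin library was below the lowest healthy library (log2 difference -2.92 ± 0.78, and -1.99 without library 3). Of 29 genes of matrix assembly and remodelling, 3 were lower (Lum, the proteoglycan Dcn and the gelatinase Mmp2) and 3 higher (Timp4, Adamts1 and the elastic fibre protein Fbln2) at an unadjusted p under 0.05. The list as a whole stood near the median of all genes, at -0.27 in log2. Of its differences 18 of 29 were negative, against 12010 of 17013 over all genes. At an unadjusted p under 0.05, 1.05% of all genes were higher and 7.02% lower. Dcn averaged 788 ± 417 RPM in efruxifermin fat, 441 ± 221 RPM in tumour control fat and 1471 ± 472 RPM in healthy fat. Fbln2 averaged 65.1 ± 35.2 RPM in efruxifermin fat, 11.5 ± 5.51 RPM in tumour control fat and 25.1 ± 9.27 RPM in healthy fat. Fbln2 thus lay above healthy fat while Dcn lay below it. Without efruxifermin library 3 the log2 difference of Dcn was -0.61, against -1.14 with it.

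Dcn and the receptor Pdgfra also mark stromal progenitors, the fibroblast-like cells from which adipocytes form. Of 13 progenitor markers, 4 were lower and 0 higher at an unadjusted p under 0.05, against 7.02% lower and 1.05% higher of all genes. Their summed level was 1746 to 9342 RPM in efruxifermin fat, 1519 to 3537 RPM in tumour control fat and 5139 to 10395 RPM in healthy fat. The sums overlapped between efruxifermin and healthy fat. Pdgfra itself had 33.2, 10.9, 1.05, 43 and 30.6 RPM in efruxifermin fat, against 68.9, 50.1, 43.5 and 57.9 RPM in healthy fat, without overlap. Without efruxifermin library 3 its difference was -1.01, against -1.76 with it.

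The smooth muscle actin Acta2, which marks the muscle cells of vessel walls, had 237, 226, 134, 180.1 and 165 RPM in efruxifermin fat, 76.9, 46.5, 134, 109.9 and 87.7 RPM in tumour control fat and 436, 348, 220.2 and 410.0 RPM in healthy fat. The log2 difference from healthy fat was -0.89 ± 0.30 (limma unadjusted p = 0.00674, adjusted p = 0.492). Of 12 mural cell markers it was the single one past an unadjusted p of 0.05, against 7.02% lower and 1.05% higher of all genes. Their summed level was 706 to 863 RPM in efruxifermin fat and 719 to 1591 RPM in healthy fat. Of 15 endothelial markers 0 passed that threshold in either direction, with a median of 0.34 in log2.

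Immune and acute phase genes differed from healthy fat with either sign. Haptoglobin (Hp), which binds free haemoglobin and is made by liver and fat, stood at 1851, 714, 118, 784 and 833 RPM in efruxifermin fat, 27.5, 17, 125, 159.7 and 146 RPM in tumour control fat and 47.1, 74.6, 86 and 262 RPM in healthy fat. Of the efruxifermin libraries, 4 were above every healthy library, and library 3 was not (log2 difference 2.73 ± 0.71, limma adjusted p = 0.334, and 3.34 in log2 without library 3). Saa1, an acute phase lipoprotein whose reads may be shared with its near-identical neighbour Saa2, averaged 12.3 ± 7.25 RPM in efruxifermin fat and 2.96 ± 3.03 RPM in healthy fat. Of 20 acute phase and inflammation genes these were the 2 higher at an unadjusted p under 0.05, and 0 were lower. Over all genes 1.05% were higher and 7.02% lower at that p.

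The chemokine Ccl6, secreted by myeloid cells, stood at 940.0, 109, 101, 158 and 156 RPM in efruxifermin fat, against 22.2, 23.4, 26.3 and 128 RPM in healthy fat, with efruxifermin library 1 far above its group.

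Galectin-3 (Lgals3), abundant in activated macrophages, averaged 196 ± 75.9 RPM in efruxifermin fat, 72.7 ± 21.6 RPM in tumour control fat and 83.7 ± 37.5 RPM in healthy fat (DESeq2 adjusted p = 0.0365). It was the 1 gene past an unadjusted p of 0.05 among 9 lipid-associated macrophage markers tested. That list had 4 positive and 5 negative differences and a median of -0.15 in log2, against -0.30 over all genes. Of 12 macrophage markers, 1 was higher and 1 lower at an unadjusted p under 0.05, against 1.05% higher and 7.02% lower of all genes. The higher was Cd163, the haemoglobin scavenger receptor of resident macrophages, with 83.2, 35.4, 20.7, 29.4 and 53.8 RPM in efruxifermin fat, against 13, 7.79, 5.4 and 38.5 RPM in healthy fat. The lower was the lipopolysaccharide co-receptor Cd14, with 16.6, 17.5, 27, 23.7 and 13.5 RPM in efruxifermin fat, against 117, 37.1, 35.3 and 73.3 RPM in healthy fat, and without overlap. Tumour control fat averaged 18.8 ± 11.6 RPM of Cd14. Macrophage markers summed to 244 to 1470 RPM in efruxifermin fat, 258 to 546 RPM in tumour control fat and 365 to 641 RPM in healthy fat. Their part in the levels of Ccl6 and Cd163 was not tested.

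Complement genes split likewise, with C6 of the membrane attack complex higher (15.2 ± 6.25 RPM in efruxifermin fat and 4.29 ± 3.53 RPM in healthy fat) and C1s1, the protease of the first component, lower (79.3 ± 24.4 RPM in efruxifermin fat and 134 ± 23.7 RPM in healthy fat). Of 14 complement genes tested, 1 was higher and 3 lower at an unadjusted p under 0.05, against 1.05% higher and 7.02% lower of all genes. Of 17 T and NK cell markers 0 passed, although all 17 had negative differences, as had 12010 of 17013 over all genes. T and NK cell markers summed to 7.02 to 994 RPM in efruxifermin fat and 20.5 to 2580 RPM in healthy fat.

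Of 18 genes of the FGF receptor complex and its ERK feedback, 14 had negative and 4 positive differences, and the median was -0.42 in log2, against -0.30 over all genes. Over all genes 12010 of 17013 differences were negative. Fgf21 had 0 reads in the efruxifermin and in the healthy libraries, which allows at most 0.201 RPM and 0.272 RPM over each group (counting error only). Fgfr1, the main FGF receptor of adipocytes, stood at 138, 142, 139, 99 and 85.2 RPM in efruxifermin fat, 33.2, 28.4, 50.9, 75.8 and 53.4 RPM in tumour control fat and 209.9, 75.7, 73.4 and 156 RPM in healthy fat. Its log2 difference from healthy fat was 0.02 (95% interval -0.68 to 0.72). The co-receptor Klb was weak and uneven, at 12.5, 0, 0, 25.6 and 22.4 RPM in efruxifermin fat, against 7.74, 1.11, 14.4 and 17.2 RPM in healthy fat, with a log2 interval of -2.55 to 1.59 and a difference of -0.48, which was 0.18 without library 3.

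Of the 18 genes, 1 was higher and 3 lower at an unadjusted p under 0.05, against 1.05% higher and 7.02% lower of all genes. The ERK phosphatase Dusp4 had 11.6, 9.93, 11.6, 20.9 and 13.5 RPM in efruxifermin fat, against 3.16, 3.71, 4.68 and 7.33 RPM in healthy fat, without overlap. The lower genes were the immediate early factor Egr1 (-1.64 ± 0.59), the feedback inhibitor Spry2 (-1.53 ± 0.70) and the receptor Fgfr3 (-1.77 ± 0.85). Egr1 stood at 41.9, 17.9, 10.2, 38.9 and 134 RPM in efruxifermin fat, with library 5 far above the rest, and 152, 169, 59.7 and 82.4 RPM in healthy fat. Tumour control fat averaged 37.4 ± 20.7 RPM of Egr1. Without efruxifermin library 3 the difference was -0.78 for Spry2 and -1.31 for Fgfr3.

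Cytokine and stress pathways had medians above that of all genes, at -0.05 in log2 for cytokine receptors and STAT3 signalling, -0.22 for ATF4 targets and -0.08 for the unfolded protein response, against -0.30. The medians of the cytokine and unfolded protein lists were positive under all 4 other scalings tried. Of 19 genes of cytokine receptors and STAT3 signalling, 3 were lower and 0 higher at an unadjusted p under 0.05: Il6st, the gp130 subunit shared by interleukin-6 family receptors, and the feedback inhibitors Socs2 and Cish. Over all genes 7.02% were lower and 1.05% higher at that p. Il6st averaged 197 ± 41.1 RPM in efruxifermin fat, 223 ± 41.2 RPM in tumour control fat and 301 ± 57.1 RPM in healthy fat. Socs2 averaged 114 ± 35.8 RPM in efruxifermin fat, 145 ± 64.6 RPM in tumour control fat and 212 ± 56.4 RPM in healthy fat. Trib3, a stress-induced pseudokinase, was the 1 lower gene of 19 ATF4 targets, at 4.07, 1.99, 0, 0 and 4.86 RPM in efruxifermin fat, against 8.44, 14.5, 7.2 and 11.4 RPM in healthy fat. Tumour control fat averaged 2.34 ± 1.74 RPM of Trib3. The chaperone partner Dnajb9 was the 1 lower gene of 17 of the unfolded protein response (-1.34 ± 0.53). For both of these lists, 1 lower gene is near the share over all genes.

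Of 17 insulin pathway genes, 3 were lower and 0 higher at an unadjusted p under 0.05, and 14 differences were negative. Over all genes 7.02% were lower and 1.05% higher at that p, and 12010 of 17013 differences were negative. Irs1, the docking protein of the insulin receptor, averaged 60.9 ± 34.6 RPM in efruxifermin fat, 43 ± 24.8 RPM in tumour control fat and 108 ± 22 RPM in healthy fat. Igfbp4, which binds insulin-like growth factors, averaged 223 ± 132 RPM in efruxifermin fat, 252 ± 49.9 RPM in tumour control fat and 381 ± 145 RPM in healthy fat. The list median was -0.61 in log2, against -0.30 over all genes.

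Lists of oxidative genes lay on both sides of the median of all genes. Of 22 respiratory chain genes 0 passed an unadjusted p of 0.05, all 22 differences were negative and the median was -0.37 in log2, against -0.30 over all genes. Over all genes 12010 of 17013 differences were negative, and 7.02% were lower and 1.05% higher at that p. Fatty acid oxidation genes had a median of -0.20, and those of the citric acid cycle and pyruvate dehydrogenase -0.23. Of 24 fatty acid oxidation genes 3 were lower and 0 higher, namely the kinase Pdk4, which holds back pyruvate oxidation, and the acyl-CoA thioesterases Acot1 and Acot2, close paralogs whose reads may be shared. Acot2 averaged 73.8 ± 32.5 RPM in efruxifermin fat and 119 ± 26.4 RPM in healthy fat. Ucp1, the uncoupling protein of heat-making fat, had 3 reads in 1 efruxifermin library and 0 reads in healthy fat, at the floor of detection. The median of 13 thermogenic and futile cycling genes tested was -0.72 in log2, with 0 past that threshold. Of 22 genes of branched-chain amino acid breakdown, 2 were lower (Ppm1k and Pcca) and 0 higher, with a median of -0.15. The medians of fatty acid oxidation and of branched-chain amino acid breakdown turned positive under quantile normalization.

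Of 16 adipocyte transcription factors, 1 was higher at an unadjusted p under 0.05, against 1.05% of all genes. This was Klf4, which acts early in adipocyte formation. It stood at 222, 164, 156, 227 and 269 RPM in efruxifermin fat, 60.3, 96.8, 114, 99.4 and 78 RPM in tumour control fat and 98.4, 88.7, 140.3 and 161 RPM in healthy fat. The log2 difference was 0.77 ± 0.28 (limma unadjusted p = 0.0107, adjusted p = 0.508), and 4 of 5 efruxifermin libraries were above every healthy library.

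Transcripts of blood and liver type were also read in the fat. Of 9 erythroid markers, 3 were higher and 0 lower at an unadjusted p under 0.05: the globins Hbb-bs and Hbb-bt, near-identical copies that may share reads, and Alas2, the haem synthesis enzyme of red cell precursors. Over all genes 1.05% were higher and 7.02% lower at that p. Alas2 had 38.2, 13.2, 37.5, 20.3 and 35.9 RPM in efruxifermin fat, against 10.9, 0.371, 11.2 and 11.4 RPM in healthy fat, without overlap. Erythroid markers summed to 1942 to 6608 RPM in efruxifermin fat, 738 to 3554 RPM in tumour control fat and 1228 to 3504 RPM in healthy fat. Albumin (Alb), a liver plasma protein, averaged 50.2 ± 24.3 RPM in efruxifermin fat, 0.0542 ± 0.121 RPM in tumour control fat and 32.6 ± 13.2 RPM in healthy fat. None of 17 liver-type plasma protein genes passed an unadjusted p of 0.05 between efruxifermin and healthy fat.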

How the data were processed

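Whole inguinal fat of 19 mice was sequenced with the QuantSeq 3' FWD kit, per the labels' protocols. Reads went through FastQC, cutadapt, HISAT2 and HTSeq on GRCm39, per the submitters' processing notes; versions and the strand setting are not given in the sources used here. The authors' deposited table holds RPM for 24844 genes. In every library 100% of values up to 1000 reads lay within 0.05 of a whole read, so reads were recovered. Floors (3 reads) cover counting error only. Intervals and SEs of differences come from the limma fit across libraries, so they include the spread between libraries. The labels do not say that libraries came from separate cages or litters.

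Genes with 1 RPM or more in at least 4 libraries (17013) were fitted by limma 3.58.1 (R 4.3.3, trend option) on log2(RPM + 1), a scale that understates differences of low genes. All 4 groups, the FGF21 AAV mice included, were in 1 fit. A gene was called where the two-sided p, adjusted by Benjamini-Hochberg across the 17013 genes, was under 0.05. edgeR 4.0.16 and DESeq2 1.42.0 on recovered reads, other scalings, filters, pseudocounts (0.25 and 5), covariates, a replicate block and leaving out libraries were alternatives. Library measures were compared by exact permutation (scipy 1.17.1). The procedure was tested on simulated data.

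The members, the 45 gene lists and the rule for named genes (15 fixed genes, the 8 of smallest p in each direction, and 2 per pathway list) were chosen with earlier results of these data known. Beyond the rule, 31 named genes and further list members were chosen after their values were seen. A few genes that the rule picks are not reported here. No coordinates of measured genes are given. Promoter windows came from RefSeq (GRCm38.p6).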

Additional observations from a re-analysis of the deposited data

Results flagged for a closer look

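Within the groups, 238 sets of 4 or 5 values were examined for a library far from the others (Dixon's test at 95%), and 30 were so marked. The test presumes normally distributed values, for which it marks about 1 in 20. Most sets here were unlogged RPM from the same libraries, so the 30 cannot be set against that rate. Of the marked values, 10 are of healthy library 4, 5 of healthy library 1, 5 of efruxifermin library 3 and 4 of efruxifermin library 1.

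Healthy library 4 was the highest of its group for adipocyte genes, with 2192 RPM of Adipoq, 1260 RPM of Pnpla2, 2062 RPM of Lipe, 8047 RPM of Fabp4, 17553 RPM of Cfd and 167 RPM of Dgat1. It was also the highest for the chemokine Ccl6 (128 RPM) and the asparagine synthetase Asns (46.5 RPM). It was the lowest of its group for Arntl (20.2 RPM) and for genes detected (15694). Without it, the log2 difference of efruxifermin from healthy fat was 0.39 for Adipoq, against 0.01 with it, 1.12 for Lipe, against 0.80, and -1.95 for Arntl, against -1.52.

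Efruxifermin library 3 was the lowest of its group for Lep (10.2 RPM), Npr3 (18.9 RPM), Hsd11b1 (6.67 RPM) and Fabp4 (1150 RPM), and the highest for Actn2 (8.42 RPM). Its summed adipocyte markers were 8940 RPM and its muscle markers 38994 RPM, and their part in these values was not tested. Efruxifermin library 1 was the highest of its group for Ccl6 (940 RPM), Igfbp4 (453 RPM), Col3a1 (838 RPM) and Ucp1 (0.938 RPM, which is 3 reads).

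Healthy library 1 was the highest of its group for Chil1 (206 RPM), Actn2 (191 RPM) and Col16a1 (125 RPM), and the lowest for Lep (17.9 RPM) and Msmo1 (20.4 RPM). Its muscle markers summed to 45544 RPM, the highest of the healthy group. Single values elsewhere were 249.5 RPM of Acacb in efruxifermin library 2, 9.49 RPM of L1cam in efruxifermin library 4, 33.3 RPM of Myh1 and 134 RPM of Egr1 in efruxifermin library 5, 25.5 RPM of L1cam in healthy library 3, and 0.371 RPM of Alas2 in healthy library 2, where the other healthy libraries had 10.9 RPM or more.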

How the results depend on the processing

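Calls between efruxifermin and healthy fat were 0 under 26 of the 29 alternatives run. The exceptions were 4 genes without a filter on low values (Mmp16, Fem1al, Gm38257 and Gm43614, all lower), 16 by DESeq2, and 1 without efruxifermin library 3 (Hsd11b1), so that leaving out 1 library gave 0 to 1. Genes at an unadjusted p under 0.05 numbered 881 of 12179 with a filter at a mean of 5 RPM, against 1373 of 17013 without it. Of genes averaging under 5 RPM over the 9 libraries 8.95% were lower at that p, against 4.97% of those at 100 RPM or more. Higher and lower genes at that p numbered 458 and 516 under quantile normalization, 261 and 979 with TMM factors, 301 and 893 with median-of-ratios factors, 556 and 432 with genes detected as a covariate, 304 and 728 with the Gm42418 share as a covariate, and 359 and 1098 without efruxifermin library 3. With the replicate number as a block 0 genes were called and 1473 had an unadjusted p under 0.05. Same-numbered libraries correlated at 0.10, 0.20, -0.13 and 0.14. The labels state no pairing, and so few correlations cannot settle whether the numbers pair the mice. Alternatives with 1 score or genes detected as covariates, by B cell score, or without the 2 libraries of fewest genes were chosen after seeing the data.

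The difference in genes detected was -2840 to -2032 on leaving out each library in turn, and that in the Gm42418 share 2.75 to 6.18 percentage points; the exact p was above 0.05 in 8 of 9 of these smaller sets for each measure. Of 114 gene results, 84 kept their sign under every alternative. Of the 45 list medians, 0 to 19 turned sign under a given alternative, 19 of them with the number of genes detected as a covariate, 14 among libraries with a B cell score of 3 or less and 11 without efruxifermin library 3. Reversed values, in log2, were the following, and the cause was not tested. With the Gm42418 share as a covariate it was -0.21 for Fgfr1, 0.83 for Klb and -0.069 for Ttr. Without the 2 efruxifermin libraries of fewest genes it was -0.14 for Fgfr1, 1.26 for Klb, 0.00641 for Pcca and 0.36 for Tyms. With the number of genes detected as a covariate it was -0.53 for Fgfr1, 1.85 for Klb, -0.51 for Alb, 0.013 for Egr1, 0.015 for Hilpda, 0.61 for Pcca, 0.14 for Ppm1k, 0.037 for Fh1, -1.47 for Ttr, -0.53 for Apoa1, -0.26 for Saa1, 0.57 for Pcna, 0.74 for Tyms, 0.18 for Pdia6, 0.66 for Lss, 0.32 for Pdgfra and -0.049 for Ctxn3. Among libraries with a B cell score of 3 or less it was -0.39 for Fgfr1, -1.24 for Adipoq, -0.43 for Lpl, -0.61 for Pnpla2, -0.76 for Plin1, -0.36 for Sncg, 0.36 for Slc27a4, -0.20 for Acsl1, -0.053 for Dgat1, -0.043 for Lipe, -0.67 for Fabp4, -0.26 for Rbp4 and -1.45 for Cfd. By edgeR it was 0.29 for Klb. By DESeq2 it was 0.31 for Klb. Among libraries with a B cell score above 3 it was 0.58 for Klb, 0.068 for Agrn and 0 for Ctxn3. With the replicate block it was -0.18 for Adipoq, -0.0572 for Plin1 and -0.21 for Cfd. With both marker scores (B cell, muscle) as covariates it was -0.23 for Adipoq, -0.10 for Plin1 and -0.19 for Cfd. With the B cell score as a covariate it was -0.00472 for Adipoq. With the muscle score as a covariate it was -0.19 for Adipoq, -0.075 for Plin1 and -0.18 for Cfd. Under quantile normalization it was -0.054 for Cfd. Leaving out each library in turn gave, where the sign turned, Fgfr1 -0.20 to 0.30, Klb -1.15 to 0.18, Adipoq -0.24 to 0.61, Plin1 -0.061 to 0.63, Sncg -0.036 to 0.59 and Cfd -0.22 to 0.79. Depth limits weak genes: 3 reads correspond to 0.938 to 1.12 RPM in 1 efruxifermin library and 1.05 to 1.11 RPM in 1 healthy library.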
